A study of Mus musculus with 8 samples.

Results

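The genes of the cytosolic ribosome's own proteins were followed in mouse neural progenitors in which Bcl6 was switched on. They were taken by symbol: Rpl or Rps with a number, Rplp0 to Rplp2 and Rpsa, leaving out symbols with -ps and the Rps6k kinases. This gave 86 of the 14954 genes in the table, 51 named for the large subunit and 35 for the small subunit. Of these, 76 were core ribosomal protein genes (45 large, 31 small), 8 were paralogs whose symbol carries an l (Rpl6l, Rpl7l1, Rpl10l, Rpl22l1, Rpl36al, Rpl39l, Rps4l and Rps27l), and 2 were further copies of Rps3a (Rps3a2 and Rps3a3). The GENCODE annotation lists Rpl6l, Rps4l, Rps3a2 and Rps3a3 as processed pseudogenes. The rule itself uses symbols and no measured value.

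All 8 libraries came from the A2lox.Cre Bcl6 line of mouse embryonic stem cells, which carries Bcl6 under a tetracycline-inducible promoter and was grown on irradiated mouse embryonic fibroblasts. Cells were differentiated toward cortical progenitors in the defined medium DDM, with cyclopamine, a hedgehog pathway inhibitor, at 400 ng/ml. At day 12, 4 control cultures had received DMSO for 24 h and 4 induced cultures had received 1 µg/ml doxycycline for 24 h. The controls carried the transgene too, and no culture had doxycycline without it, so Bcl6 and doxycycline cannot be told apart. The labels number the differentiations 1 to 4 in each group and do not tell whether they were separate cultures in every respect. The p-values therefore reflect only how much the libraries varied, which may be technical.

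A ribosome holds a single copy of nearly every one of these proteins, and cells make them in matched amounts. Their mRNAs are short, abundant and among the most actively translated in dividing cells. They begin with a run of pyrimidines, the 5′ terminal oligopyrimidine (TOP) tract, through which the mTOR pathway and the RNA-binding protein Larp1 set their translation and stability. Myc family factors drive their transcription together with that of the ribosome assembly factors. Bcl6 is a transcriptional repressor known in cortical progenitors for promoting the switch to neurons. Several core genes have duplicates, many of them retrocopies, that are used in particular tissues: Rpl10l and Rpl39l are best known from the testis.

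Sequences near the start site are shown for core members of high level (Rpl4, Rps12) and for Rpl13a and Rps27. They are also shown for 2 core genes beside their paralogs (Rpl39, Rpl39l, Rpl10, Rpl10l). These genes are examples and do not stand for all members. Each is a 30-base stretch of the RefSeq promoter on GRCm38.p6, read 5′ to 3′ on the gene's strand, with the longest run of C and T within 50 bases of the start in capitals.
Rpl4, chr9:64173405-64173434, plus strand: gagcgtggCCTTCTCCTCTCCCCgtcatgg
Rps12, chr10:23787182-23787211, minus strand: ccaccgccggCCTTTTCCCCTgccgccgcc
Rpl13a, chr7:45128722-45128751, minus strand: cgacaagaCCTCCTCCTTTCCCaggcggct
Rps27, chr3:90213632-90213661, minus strand: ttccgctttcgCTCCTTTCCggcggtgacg
Rpl39, chrX:37085173-37085202, minus strand: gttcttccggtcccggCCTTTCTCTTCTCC
Rpl39l, chr16:10170191-10170220, plus strand: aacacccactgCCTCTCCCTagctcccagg
Rpl10, chrX:74270836-74270865, plus strand: cgtgagcaggcgtgggagcgTCTCTTTTCC
Rpl10l, chr12:66284429-66284458, minus strand: tcagtctctatgaTTCCCgcaaggcttgat

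RefSeq promoters were matched to 62 of the 86 members. A run of at least 8 C or T on the gene's strand, within 50 bases of the start, was present in 48 of 56 core genes (85.7%) and in 4 of 6 paralogs, against 37.3% of 10859 genes of the table with a promoter and 35.7% of all 32851 promoters. The longest run was 15 bases in Rpl4, 14 in Rpl13a and Rpl39, 11 in Rps12, 10 in Rpl10, 9 in Rps27 and Rpl39l, and 5 in Rpl10l. Counted from the annotated start, it lay at 26 to 40 in Rpl4, 8 to 18 in Rps12 and 2 to 15 in Rpl13a. It lay at -2 to 6 in Rps27, 36 to 49 in Rpl39 and -26 to -18 in Rpl39l. In Rpl10 it lay at 40 to 49 and in Rpl10l at -44 to -40. The runs of Rpl39 and Rpl10 ended at the last base searched and may be longer. Not every stretch includes the start, so a run is not taken to be the TOP tract itself. The ETS-type core CCGGAAG, searched on both strands of the 300-base promoter, was found in 24 of 56 core genes (42.9%) and 2 of 6 paralogs, against 18.7% of the genes of the table and 8.86% of all promoters. Its reverse strand reads CTTCCGG and can overlap a pyrimidine run. For a gene with several starts, the longest run of any start was taken, and a match is a description of the letters only.

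Bcl6 itself, counted from the endogenous gene and the transgene together, measured 6.61, 6.01, 7.12 and 6.21 CPM (the scaled value relative to the sum of its library) for controls 1 to 4. The 4 induced libraries, in the same order, held 393, 422, 427 and 325 CPM, which follows the labels. Recovered depth was 9.42 to 9.74 M reads in the controls and 10.3 to 15.0 M in the induced libraries, so every control was shallower. Among lists of cell markers, 6 of 10 neural progenitor markers were called lower and 8 of 10 neuron markers higher in the induced group. Over all genes 4.55% were called higher and 2.26% lower, the shares to set beside the counts of each marker list. Their summed levels ranged from 1646 to 2012 CPM in controls and 1133 to 1502 CPM in induced libraries for the progenitor list, and from 941 to 1161 and 1563 to 1861 CPM for the neuron list. Pluripotent cell markers summed to 2092 to 2328 CPM in controls and 1977 to 2334 CPM in induced libraries, with 5 of 10 called higher and 1 lower. Of 9 fibroblast markers, which the feeder layer could supply, none was called in limma, and they summed to 542 to 695 and 584 to 700 CPM. No marker of any of these lists was at 0 in any library. The part of cell composition in the results below was not tested, and in bulk RNA fewer cells of a type cannot be told apart from less RNA per cell.

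The core genes were among the most abundant transcripts of these cells. Their mean level over the 8 libraries, per kilobase of transcript, ran from 49.7 to 1521 CPM per kb with a median of 749, against a median of 9.57 over all genes. Of the 100 genes with the most reads, not corrected for length, 25 were core ribosomal protein genes. The highest was Rpl4, a large-subunit protein near the exit tunnel, at 1521 CPM per kb, followed by Rps12 (1379), the stalk protein Rplp1 (1350), Rps4x (1323) and Rpl9 (1275). Rpl13a was the lowest core gene at 49.7 CPM per kb. Among the paralogs, Rpl6l at 5.69, Rpl10l at 9.88 and Rpl39l at 10.4 CPM per kb were the lowest members of all. The other paralogs lay above Rpl13a but below the core median, with Rps27l the highest at 251. Ribosomal protein genes have many near-identical processed copies, 59 of which stand in the table with -ps names, and reads can be split or lost between copies, so levels of single members are uncertain.

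**Figure D1:**
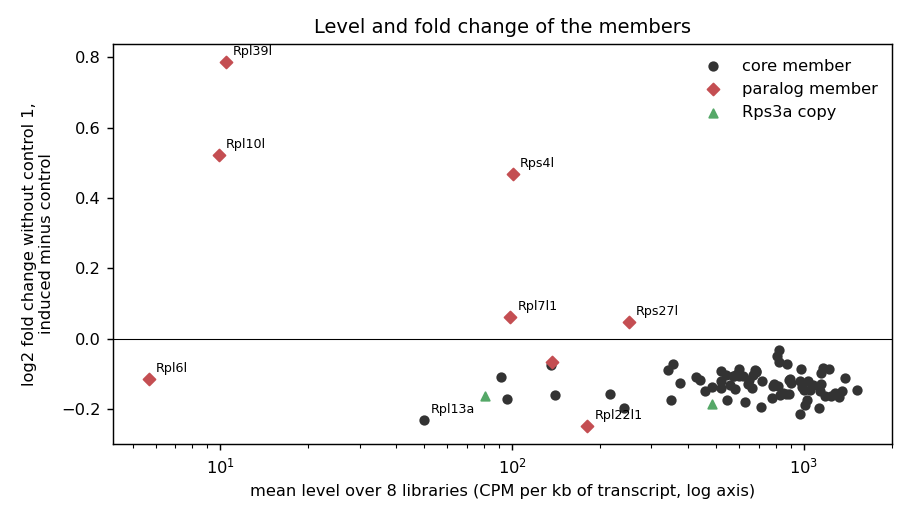
Mean level over 8 libraries (CPM per kb of transcript, log axis) against the log2 fold change without control 1 for 76 core members (circles), 8 paralogs (diamonds) and 2 Rps3a copies (triangles). The core genes lie below 0, while Rpl39l, Rpl10l and Rps4l lie farthest above 0. Rpl7l1 (0.06) and Rps27l (0.05) lie just above 0.

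The members were compared between induced and control cultures to see how the ribosome's genes stood after 24 h of Bcl6. Together they took up 6.41%, 5.53%, 4.88% and 4.96% of all scaled reads for controls 1 to 4. The induced libraries, in order, gave 4.47%, 5.05%, 4.68% and 4.50%. Control 1 was the highest and control 2 the next, and the groups overlapped because induced library 2 lay above controls 3 and 4. The mean share was 5.45% ± 0.71 (SD, n = 4) in controls and 4.67% ± 0.27 (SD, n = 4) in induced libraries. Without control 1 the control mean was 5.12% ± 0.35 (SD, n = 3).

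**Figure D2:**
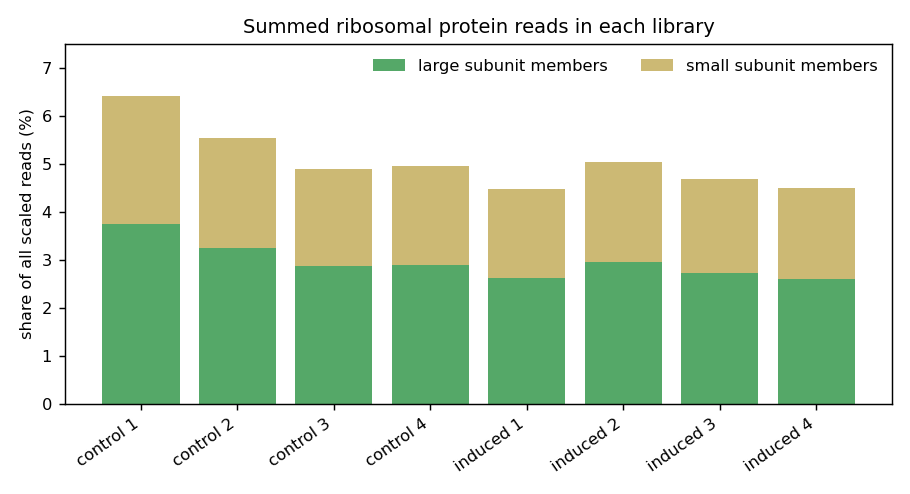
Share of all scaled reads (%) taken by the 86 members in each library, large-subunit members below and small-subunit members above. Control 1 is the highest bar at 6.41%, and the other controls, at 4.88% to 5.53%, overlap the induced libraries at 4.47% to 5.05%.

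All 76 core genes had a log2 fold change (induced minus control) below 0, between -0.34 and -0.13, against 44.6% of all genes below 0. Their median was -0.21, against a median of 0.03 over all genes. The core genes varied together across libraries (median r of 0.987 with the core median), so the 76 signs are not separate observations. None of the 76 was called by limma at an adjusted p under 0.05, the lowest being 0.083, and the median standard error (SE) was 0.10. At an unadjusted p under 0.05, 39 of the 76 were lower, against 8.89% of all genes. Over all members 1 was called higher, the paralog Rpl39l, and 0 lower, beside 4.55% of all genes called higher (681) and 2.26% called lower (338). With upper quartile scaling that split over all genes was 501 higher and 474 lower, and the core median was -0.27.

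Control 1 moved these values most. It was the highest library for all 76 core genes, whereas 28.5% of all genes were highest there. The lowest library was induced library 1 for 41 core genes, induced library 4 for 34 and induced library 3 for 1. Measured from the control mean, the core median on the log2 scale was 0.26, 0.03, -0.15 and -0.13 for controls 1 to 4. For the induced libraries, in order, it was -0.27, -0.11, -0.21 and -0.27. In control 1 the decile of all genes with the shortest transcripts (up to 1058 bases) stood at 0.31, the longest decile at -0.41 and the mitochondrial ribosomal protein genes, whose proteins belong to another ribosome, at 0.33. The core transcripts had a median length of 830 bases against 2864 over all genes, and 57 of 76 fell in the shortest decile. With a trend over transcript length and GC content taken off in each library, the core median was -0.17 (all genes -0.01) and all 76 core genes were below 0. Of these, 5 (Rpl3, Rpl10a, Rpl13a, Rpl22 and Rpl28) were called lower by limma, beside 5.78% of all genes, and 3 paralogs (Rpl10l, Rpl39l and Rps4l) were called higher, beside 5.84% of all genes.

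**Figure D3:**
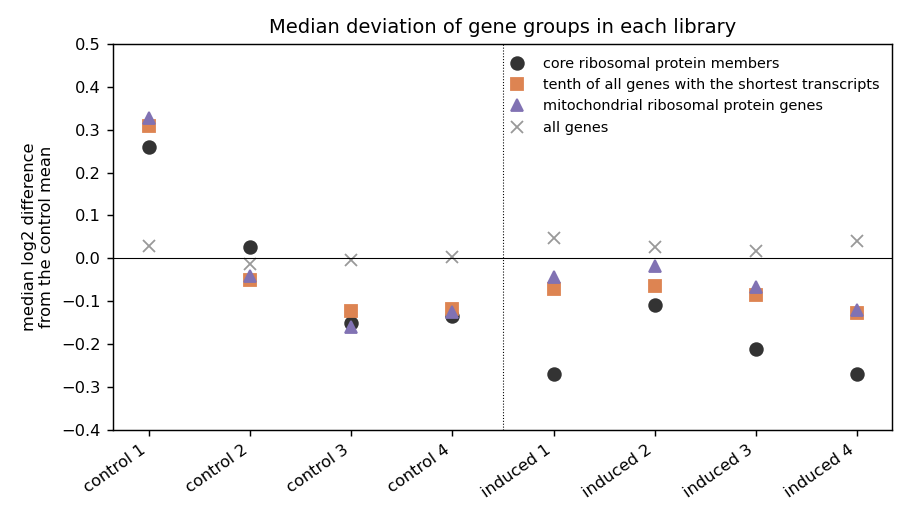
Median log2 difference from the control mean in each library for core members (circles), the decile of genes with the shortest transcripts (squares), mitochondrial ribosomal protein genes (triangles) and all genes (crosses). In control 1 the first 3 stand at 0.26 to 0.33, and in induced libraries 1, 3 and 4 the core members stand at -0.21 to -0.27, below the other groups.

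Without control 1 all 76 core genes were still below 0, between -0.23 and -0.03, against 43.4% of all genes below 0. The core median was -0.13, with a median over all genes of 0.03. limma then called Rpl13a lower, and Rpl39l and Rps4l higher, so 1 member was lower beside 3.68% of all genes (551) and 2 were higher beside 7.66% (1146). At an unadjusted p under 0.05, 23 core genes were lower, against 10.4% of all genes. With controls 1 and 2 both left out the core median was -0.07 and no member was called, so the size of the difference depended on these 2 control libraries.

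Rpl13a, a large-subunit protein also known for a translational control complex outside the ribosome, measured 72.6, 54.3, 53.9 and 52.7 CPM in controls and 47.5, 47.0, 45.9 and 42.6 CPM in induced libraries. The groups did not overlap, with control 1 far above the other controls. Its log2 fold change was -0.34 ± 0.11 (SE; limma adjusted p = 0.083) in all 8 libraries and -0.23 ± 0.06 (limma adjusted p = 0.043) without control 1. Rps27, a zinc-finger protein of the small subunit, measured 463, 381, 323 and 326 CPM in controls and 282, 315, 296 and 288 CPM in induced libraries. Its groups did not overlap either, with control 3 the nearest to induced library 2, and the log2 fold change was -0.32 ± 0.11 (limma adjusted p = 0.103), or -0.21 ± 0.07 (limma adjusted p = 0.074) without control 1. Rpl3, which lies close to the peptidyl transferase centre, measured 1707, 1499, 1381 and 1374 CPM in controls and 1214, 1333, 1236 and 1189 CPM in induced libraries, a log2 fold change of -0.26 ± 0.09 (limma adjusted p = 0.098). In all, 7 core genes (Rpl3, Rpl7, Rpl10a, Rpl13a, Rpl31, Rps3a1 and Rps27) were lower in every induced library than in every control, 9.21% of the core genes, beside 6.17% of all genes, and the same 7 without control 1, beside 8.91% of all genes. These 7, other than Rpl13a, were named after their values were seen.

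The 5 members with the highest level per kb overlapped between the groups. Rpl4 measured 2803, 2619, 2296 and 2306 CPM in controls and 2078, 2361, 2165 and 2085 CPM in induced libraries, a log2 fold change of -0.20 ± 0.09 (limma adjusted p = 0.195). Induced library 2 lay above controls 3 and 4. Rps12, Rplp1, Rps4x and Rpl9 had log2 fold changes of -0.18, -0.22, -0.25 and -0.22, with limma adjusted p between 0.149 and 0.245, and of -0.11, -0.15, -0.17 and -0.15 without control 1. The smallest core difference was that of Rps2 (-0.13, or -0.05 without control 1), and without control 1 that of Rpl13 (-0.03 ± 0.07).

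The core genes moved together from library to library. Across the 8 libraries each core gene's log2 level was correlated with the core median at a lowest r of 0.896 and a median r of 0.987, and 75 of 76 exceeded 0.9. The points share libraries, and each gene enters the median, so this is a description. They include control 1, where the core median (0.26), the shortest decile of all genes (0.31) and mitochondrial ribosomal protein genes (0.33) were all high. Correlations without control 1, or of other short transcripts, were not computed, so the values are not shown to be particular to the core genes. The subunits kept their proportion: large-subunit members held 1.41 ± 0.01 (SD, n = 4) times the reads of small-subunit members in controls and 1.40 ± 0.01 (SD, n = 4) in induced libraries. The core median log2 fold change was -0.22 for the 45 large-subunit genes and -0.20 for the 31 small-subunit genes, and -0.13 and -0.12 without control 1.

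**Figure D4:**
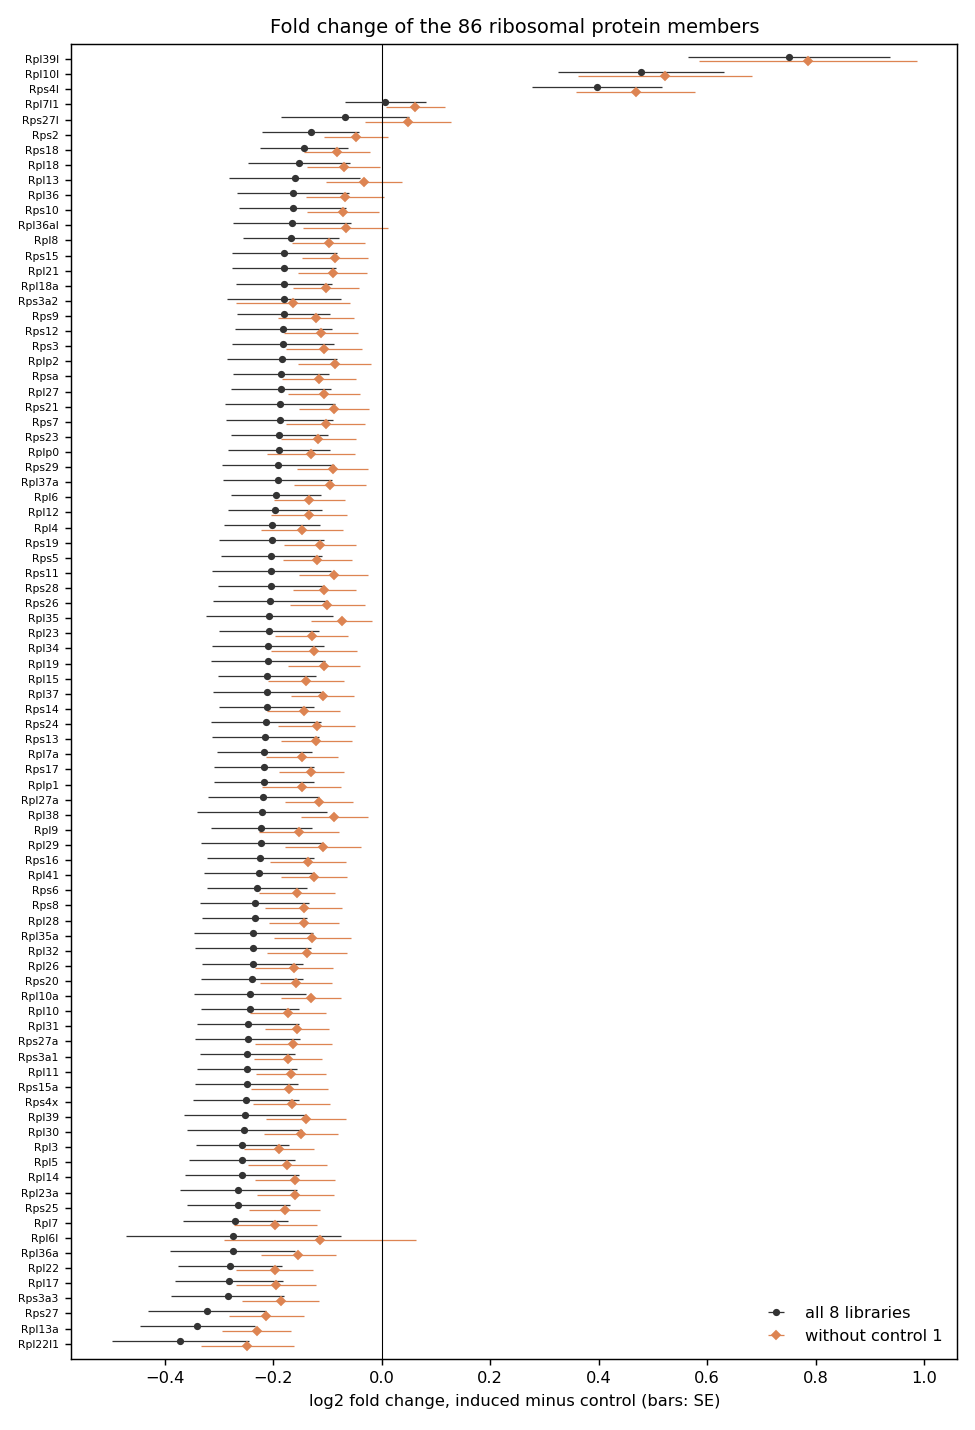
log2 fold change (induced minus control, bars are SE) of each of the 86 members with all 8 libraries (circles) and without control 1 (diamonds). The core genes form a band below 0 that lies nearer to 0 without control 1, and Rpl39l, Rpl10l and Rps4l stand farthest above 0 in both fits.

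The paralogs did not all follow the core genes. Across the 8 libraries, r with the core median was 0.946 for Rpl22l1, 0.924 for Rpl36al, 0.857 for Rpl6l, 0.787 for Rps27l and 0.639 for Rpl7l1. It was -0.488 for Rpl10l, -0.471 for Rpl39l and -0.416 for Rps4l. Rpl39l, a copy of the exit-tunnel protein Rpl39 (mm10 chromosome 16, 10170226 to 10174911, plus strand, protein coding), measured 5.56, 4.66, 5.67 and 4.86 CPM in controls and 11.1, 10.8, 7.01 and 6.92 CPM in induced libraries. Every induced library was above every control, with induced libraries 1 and 2 the highest. The level rose by a log2 fold change of 0.75 ± 0.19 (limma adjusted p = 0.038), and by 0.79 ± 0.20 (limma adjusted p = 0.032) without control 1. These values rest on 44.2 to 167 recovered reads per library. The call was lost, at adjusted p of 0.051 to 0.131, when control 2, 3 or 4 or induced library 1 or 2 was left out, and the log2 fold change then ranged from 0.64 to 0.79.

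Rps4l, a copy of the small-subunit gene Rps4x (mm10 chromosome 6, 148354656 to 148355598, plus strand, annotated as a transcribed processed pseudogene), measured 86.5, 58.7, 70.1 and 86.8 CPM in controls and 104, 99.045, 91.5 and 98.3 CPM in induced libraries. The groups did not overlap, although control 2 lay well below controls 1 and 4. Its log2 fold change was 0.40 ± 0.12 (limma adjusted p = 0.073) in all 8 libraries and 0.47 ± 0.11 (limma adjusted p = 0.024) without control 1. Rpl10l, a copy of Rpl10, whose protein joins the large subunit late in its assembly, measured 9.17, 6.76, 9.08 and 8.72 CPM in controls and 12.8, 13.2, 9.22 and 11.9 CPM in induced libraries. Induced library 3 was close to controls 1 and 3, and the log2 fold change was 0.48 ± 0.15 (limma adjusted p = 0.087), or 0.52 ± 0.16 (limma adjusted p = 0.062) without control 1. These 3 paralogs were the members that were higher in every induced library than in every control, 3.49% of the 86 members, beside 10.7% of all genes.

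The remaining 5 paralogs were not called with all 8 libraries or without control 1. Rpl22l1, the paralog of the RNA-binding protein Rpl22, measured 144, 114, 106 and 88.8 CPM in controls and 84.3, 90.9, 90.0 and 79.8 CPM in induced libraries, a log2 fold change of -0.37 ± 0.13 (limma adjusted p = 0.104), the lowest of all members, and -0.25 ± 0.09 without control 1. With control 4 left out, Rpl22l1 was called lower (-0.48, limma adjusted p = 0.035), in a fit that called 239 genes lower. Rpl36al, Rpl6l and Rps27l had log2 fold changes of -0.17, -0.27 and -0.07 with all 8 libraries, and Rpl7l1, whose name follows Rpl7, had 0.01 ± 0.07. Without control 1 Rpl36al was -0.07, Rpl6l -0.11 and Rpl7l1 0.06. Rps27l was then 0.05 ± 0.08, so its sign differed between the fits. The Rps3a copies Rps3a2 and Rps3a3 stood at -0.18 and -0.28, near the -0.25 of Rps3a1, and at -0.16 and -0.19 beside -0.17 without control 1. Of the 59 pseudogenes with -ps names, none was called in limma with all 8 libraries. Over all genes 4.55% were called higher and 2.26% lower. At an unadjusted p under 0.05, 8 of the 59 were lower, against 8.89% of all genes, and 0 were higher. Their median log2 fold change was -0.24, and 52 of 59 were below 0, against 44.6% of all genes. Without control 1 the median was -0.09, and 37 of 59 were below 0, against 43.4% of all genes. In that fit 1 of the 59 was called lower, beside 3.68% of all genes.

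Set against their own partner genes, several paralogs stood at a higher percentage in the induced libraries. Rpl39l reads amounted to 1.29%, 1.31%, 1.89% and 1.63% of Rpl39 reads in controls and to 4.01%, 3.5%, 2.41% and 2.52% in induced libraries, a mean of 1.53% ± 0.29 (SD, n = 4) against 3.11% ± 0.78 (SD, n = 4). Rpl10l went from 0.929% ± 0.18 to 1.53% ± 0.24 of Rpl10, and Rps4l from 5.44% ± 1.16 to 8.39% ± 0.68 of Rps4x (SD, n = 4 each). Rpl7l1 measured 13.5% ± 0.97 and 16.4% ± 0.81 of Rpl7, and Rps27l 34.6% ± 2.36 and 41.3% ± 3.02 of Rps27. In these 5 pairs every induced library was above every control. Ratios of other genes were not formed, so this count has no share over all genes beside it. For levels of single genes that share was 10.7%. The partner's own log2 fold change was below 0 in each pair, though not called. Rpl7l1 and Rps27l themselves overlapped between the groups, with log2 fold changes of 0.01 and -0.07. Their partners Rpl7 (-0.27) and Rps27 (-0.32) were lower in every induced library than in every control. Rpl36al, Rpl22l1 and Rpl6l overlapped between the groups, at 24.4% and 26.3%, 20.7% and 19.4%, and 0.510% and 0.482% of their partners. These ratios were not tested.

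**Figure D5:**
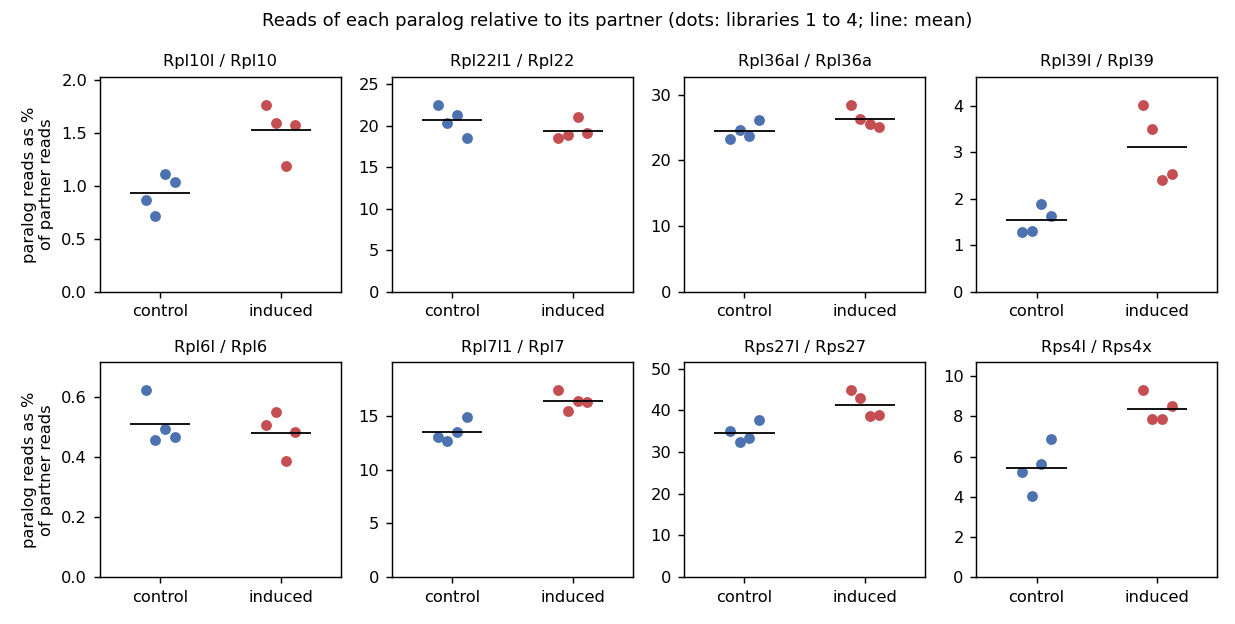
Reads of each of the 8 paralogs as a percentage of the reads of its partner gene in the 4 control and 4 induced libraries (dots, with the mean as a line, each axis starting at 0). Rpl39l has means of 1.53% and 3.11% of Rpl39 with no overlap, and Rpl22l1, Rpl36al and Rpl6l overlap between the groups.

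Genes that work with the ribosomal proteins were read from lists. Among 19 other genes with TOP mRNAs, mostly elongation and initiation factors, 0 were called by limma with all 8 libraries and the median log2 fold change was -0.20, or -0.12 without control 1, beside core medians of -0.21 and -0.13. Without control 1, 1 of the 19, the histone chaperone gene Nap1l1, was called lower (-0.22 ± 0.06, limma adjusted p = 0.046), beside 3.68% of all genes. Fau and Rack1, whose proteins also belong to the ribosome, were not called: Fau, which encodes Rps30 as a fusion, measured 526 ± 78.7 CPM in controls and 454 ± 27.0 CPM in induced libraries, and Rack1 1967 ± 180 and 1726 ± 110 CPM (SD, n = 4 each). The 78 mitochondrial ribosomal protein genes had a median of -0.07 with 0 called, and a median of 0.03 without control 1. In that fit 2 of the 78, Mrpl38 and Mrps2, were called higher, beside 7.66% of all genes.

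Assembly factors were read next. Of 50 ribosome biogenesis genes 3 (6%, beside 4.55% of all genes) were called higher and 0 lower, with a median log2 fold change of 0.02 beside 0.03 over all genes. Without control 1, 8 were higher (16%, beside 7.66% of all genes) and 0 lower. Rrp12, which exports pre-ribosomal subunits, rose from 51.7, 53.1, 47.6 and 53.4 CPM to 73.0, 70.0, 66.7 and 68.4 CPM, a log2 fold change of 0.44 ± 0.07 (limma adjusted p = 0.0069). Tsr1, a maturation factor of the small subunit, rose from 68.7, 77.0, 79.3 and 83.5 CPM to 94.3, 94.3, 94.4 and 96.2 CPM, a change of 0.30 ± 0.07 (limma adjusted p = 0.036). Rrn3, an initiation factor for RNA polymerase I, was the third, at 0.30 ± 0.07 (limma adjusted p = 0.023). In Rrp12 and Tsr1 no induced library overlapped a control.

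Of 25 regulators of ribosomal protein synthesis measured, 1 was called lower (4%, beside 2.26% of all genes) and 0 higher, with a median of 0.09. The Myc family member Mycl fell from 131, 119, 102 and 119 CPM to 64.9, 65.9, 91.6 and 95.5 CPM, a change of -0.58 ± 0.14 (limma adjusted p = 0.030). Myc measured 41.4, 35.01, 34.0 and 30.5 CPM in controls and 25.7, 24.3, 31.2 and 25.9 CPM in induced libraries, a difference of -0.39 ± 0.11 that missed the threshold (limma adjusted p = 0.064), with induced library 3 above control 4. Mycn differed by -0.08 ± 0.07 (limma adjusted p = 0.53). Without control 1, Mycl was again the 1 regulator called lower (4%, beside 3.68% of all genes), and 2 were called higher (8%, beside 7.66% of all genes). The latter, Eif4ebp1 and Sesn2, restrain translation and the mTOR pathway (log2 fold changes of 0.40 ± 0.07 and 0.28 ± 0.06).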

How the data were processed

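The authors deposited 1 table of mouse genes for 8 libraries. The submitters' processing notes name build mm10 and the tools edgeR 3.20.1, HTSeq 0.9.1 and STAR 2.5.3a, without roles. Libraries were stranded per the labels' protocols. Whether reads were counted by strand is not given in the sources used here, so reads of antisense or overlapping genes cannot be told apart. The values the authors deposited are a score: reads scaled to about 20 M per library and rounded up. At least 99.6% of values lay on whole multiples of 1 step per library, which gave the recovered reads. Decimal commas had split the deposited CPM cells. These were rejoined only to check that all 14954 lines were aligned, and CPM here is the scaled value over the library's sum.

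limma 3.58.1 (R 4.3.3, with trend) was fitted to log2(value + 1) over all genes, without covariates and with Benjamini-Hochberg adjustment, called at adjusted p under 0.05, with and without control 1. No count test was used, because the values are not raw counts. The script was tested on simulated data. Transcript lengths are medians over GENCODE vM21 principal or basic transcripts.

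Members and lists were chosen with earlier results of these data known. Genes were named by rule: the 5 highest and 3 lowest members, all called members, all paralogs, Fau, Rack1, Myc, Mycn, and up to 2 called genes of largest rise and fall per list; others were chosen after their values were seen. A gene that the rule also names is not reported here. Alternatives were other pseudocounts, scalings and a filter, array weights, removal of a length and GC trend, a replicate block and leaving out libraries.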

Additional observations from a re-analysis of the deposited data

Results flagged for a closer look

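In groups of 4 libraries, 3 values stood apart from the other 3 by more than Dixon's 95% limit for 4 samples, out of 48 groups looked at; chance alone gives about 1 in 20. Rpl13a in control 1 measured 72.6 CPM against 52.7 to 54.3 CPM in the other controls. Rpl6l in control 1 measured 7.47 CPM against 4.61 to 4.96 CPM. The ratio of large-subunit to small-subunit reads was 1.381 in induced library 4 against 1.406 to 1.407 in the other induced libraries. The 48 groups did not cover every member, so this list is not a full account of control 1. Outside the list, Rpl13 measured 879 CPM in control 1 against 609 to 629 CPM in the other controls. Rpl10a measured 553 CPM in control 1 against 399 to 417 CPM in the other controls.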

How the results depend on the processing

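The median log2 fold change of the members kept its direction in every alternative run, and all 76 core genes stayed below 0 except for 1 with array weights without control 1. With array weights 3 members were higher and 2 lower, and after removal of a trend with length and GC 3 and 5. Leaving out 1 library gave 0 to 2 members higher and 0 to 1 lower, and leaving out controls 1 and 2 together, chosen after the data were seen, gave 0 higher. Without control 1, upper quartile scaling gave 2 lower. Direction turned for 3 paralogs that were not called: Rpl7l1 was -0.027 with median-of-ratios scaling, -0.046 with upper quartile scaling, -0.024 with TMM scaling, and -0.045 to 0.062 with 1 library left out; Rps27l was 0.030 with array weights, 0.071 with the trend removed, -0.15 to 0.048 with 1 library left out (the highest without control 1) and 0.083 without controls 1 and 2; Rpl36al was 0.0072 without controls 1 and 2. The cause was not tested. Over all genes, counts of higher and lower calls were 1643 and 864 with array weights and 266 and 93 without control 2, against 681 and 338.

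The labels give both groups the same differentiation numbers. Deviations of same-numbered libraries from their group means correlated at 0.03, 0.01, -0.03 and 0.37, so the numbers were not taken to pair the libraries. With a replicate block 1 member, Rpl39l, was higher with all 8 libraries (531 and 296 genes higher and lower). Without control 1 the block gave 1 member higher (Rps4l) and 1 lower (Rpl22), with Rpl39l at adjusted p = 0.071 and Rpl13a at 0.073 in limma. Rpl6l rests on 40.2 to 70.3 recovered reads per library, which limits its precision.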
